A study of Homo sapiens with 8 samples.

Results

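The comparison described here sets K562 cells carrying the control guide sgAAVS1 against untransduced K562 cells. Both groups express dCas9-KRAB, the effector of CRISPR interference, and each was measured in 2 RNA-seq libraries, so 4 of the 8 libraries of the study make the comparison. K562 is an established chronic myeloid leukaemia line with erythroid features. The study used sgAAVS1, a guide to the AAVS1 site, as its negative control, and RNA was taken 7 days after transduction. The untransduced cells received no guide, so the effect of the guide and that of transduction cannot be told apart in this comparison alone. The other 4 libraries carry sg1-IRF2 or sg2-IRF2, a pair of guides to the transcription factor gene IRF2, 2 libraries each and also 7 days after transduction. They enter the same fit and give values to set beside those of sgAAVS1. Genes were included where the mean deposited log2 value over the 8 libraries was at or above 0, which kept 14665 of 35805 listed genes.

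AAVS1 is a site in the first intron of PPP1R12C, which encodes a regulatory subunit of myosin phosphatase. It is called a safe harbour because insertions there are tolerated, and guides to it are common controls in CRISPR screens. In CRISPR interference a catalytically dead Cas9 fused to the repressor domain KRAB is brought to a site by its guide, and the KRAB domain recruits TRIM28 and histone methylation that silence a promoter nearby. A guide needs matching bases directly beside an NGG motif, and the bases nearest to that motif matter most for binding.

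The sequence of the sgAAVS1 guide was not used here. The windows below show the promoters of PPP1R12C, of RAB11FIP5 and SNCG, the lowest among called genes with a mean log2 of at least 2 and no overlap of the libraries, and the bases between PNCK and SLC6A8, which lie head to head and both fell. They are RefSeq sequences on GRCh38.p14, written 5′ to 3′ along the gene, and capitals mark the 9 bases beside an NGG that the PPP1R12C and RAB11FIP5 windows share. The first is chr19:55117638-55117887 on the minus strand, the second chr2:73112989-73113198 on the minus strand, the third chr10:86955509-86955758 on the plus strand and the fourth chrX:153687772-153687925 on the plus strand. The RAB11FIP5 window shows the first 210 of the 250 bases before the RefSeq start. The RefSeq starts differ from the 5′ ends of the gene spans listed with the deposited values. The SNCG window ends at 86955758, while the listed SNCG span starts at 86958618. For RAB11FIP5 the 5′ end of the listed span is 73156721, away from its window. These windows may therefore not hold the starts of the counted transcripts.
PPP1R12C: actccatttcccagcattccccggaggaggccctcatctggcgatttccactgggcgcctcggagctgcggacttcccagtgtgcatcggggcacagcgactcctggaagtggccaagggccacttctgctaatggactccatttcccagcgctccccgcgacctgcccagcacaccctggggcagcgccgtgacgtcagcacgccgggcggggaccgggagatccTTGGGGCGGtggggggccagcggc
RAB11FIP5: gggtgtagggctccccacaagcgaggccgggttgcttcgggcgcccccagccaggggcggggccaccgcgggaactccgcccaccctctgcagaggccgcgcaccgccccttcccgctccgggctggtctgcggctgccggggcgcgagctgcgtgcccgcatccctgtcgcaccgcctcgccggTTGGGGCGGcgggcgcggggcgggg
SNCG: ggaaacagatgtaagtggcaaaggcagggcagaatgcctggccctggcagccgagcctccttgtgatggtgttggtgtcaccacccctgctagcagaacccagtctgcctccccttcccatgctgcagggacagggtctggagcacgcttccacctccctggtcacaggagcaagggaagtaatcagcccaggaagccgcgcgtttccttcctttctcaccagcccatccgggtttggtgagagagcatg
PNCK to SLC6A8: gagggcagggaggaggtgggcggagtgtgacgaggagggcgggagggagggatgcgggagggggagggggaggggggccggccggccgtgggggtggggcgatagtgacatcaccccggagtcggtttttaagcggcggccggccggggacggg

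Among called genes with a mean log2 of at least 2 and no overlap of the 4 libraries, the 12 lowest and 12 highest were taken, and 19 of these 24 had a RefSeq promoter window of 250 bases before to 50 bases after the start. Runs of 9 bases directly 5′ of an NGG, on either strand, were compared with those of the PPP1R12C window. Of the genes with a window, 5 of 10 lower and 2 of 9 higher genes shared such a run. A gene counted if any of its windows did. Among all 35116 promoter windows, counted singly, 11.3% share such a run, so this share is per window and not per gene. The run shared by RAB11FIP5 occurs in 0.137% of all windows. Runs of 12 bases were shared by 0 of 10 lower genes and 0 of 9 higher genes, against 0.769% of all windows counted singly. The median GC content of the bases before the start was 63.3% for the lower and 49.4% for the higher genes, against 58% for all windows. The first intron of PPP1R12C, which holds the AAVS1 site, was not searched, and the promoter window was used in its place. These matches therefore describe letters in the windows. They do not place the guide and cannot show whether it binds at another gene.

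The untransduced libraries held 6303033 and 6320046 recovered reads and the sgAAVS1 libraries 5248359 and 6738348. The reads of both untransduced libraries differed by less than counting noise, with a chi-square per degree of freedom of 0.820, where counting noise alone gives 1. Between the sgAAVS1 libraries the value was 1.66. The first sgAAVS1 library was closer to the first sg1-IRF2 library (1.11), and the second to the second sg1-IRF2 library (1.22), than the sgAAVS1 libraries were to each other. Between sgAAVS1 and untransduced libraries the values ran from 1.93 to 2.12, and between untransduced and sg2-IRF2 libraries from 1.12 to 1.31. Erythroid transcripts marked all 4 libraries as labelled: the erythroid factor GATA1 had 673 to 758 reads and the fetal globin HBG2 had 798 to 861. Neither passed the limma test between the groups, with adjusted p of 0.545 for GATA1 and 0.62 for HBG2.

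PPP1R12C (chromosome 19, 55090913 to 55117559 on the minus strand of hg38) was lower with sgAAVS1. It had 679 and 699 reads in untransduced cells and 375 and 424 with sgAAVS1. On the median-aligned log2 scale the levels were 6.94 and 6.97 against 6.36 and 6.15, so the groups did not overlap, as in 21.4% of all tested genes with sgAAVS1 lower and 23% with sgAAVS1 higher. The difference was -0.70 on the log2 scale (SE 0.063, limma adjusted p 1.58e-06), a 1.62-fold lower level. The call was lost in the fit without the mean-variance trend (limma adjusted p 0.0832) and kept in the other 17 alternatives. Cells with either IRF2 guide had 671 to 726 reads of PPP1R12C, and sgAAVS1 lay 0.73 below the mean of both IRF2 guides (log2 difference -0.73, SE 0.0546, limma adjusted p 2.61e-08). Against both IRF2 guides limma called 208 genes (1.42%), 124 higher (0.846%) and 84 lower (0.573%) with sgAAVS1. IRF2 itself, the target of the other guides, had 271 and 268 reads in untransduced cells and 196 and 291 with sgAAVS1, a log2 difference of -0.08 (SE 0.209, limma adjusted p 0.887). Its reads were 4 and 8 in the sg1-IRF2 libraries, and 22 and 21 in those of sg2-IRF2.

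No neighbour of PPP1R12C passed the test. Of 37 tested genes within 500 kb, 0 were called by limma and 0 by voom, and 3 had an unadjusted p under 0.05. Over all tested genes 4.42% were called in either direction, and 2710 of 14665 had an unadjusted limma p under 0.05. The median difference of the neighbours was -0.03, and among the 32 with a mean log2 value of at least 2 the differences ran from -0.28 for BRSK1, a kinase of neurons (limma adjusted p 0.0561), to 0.22 for the platelet collagen receptor gene GP6 (limma adjusted p 0.316).

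**Figure D1:**
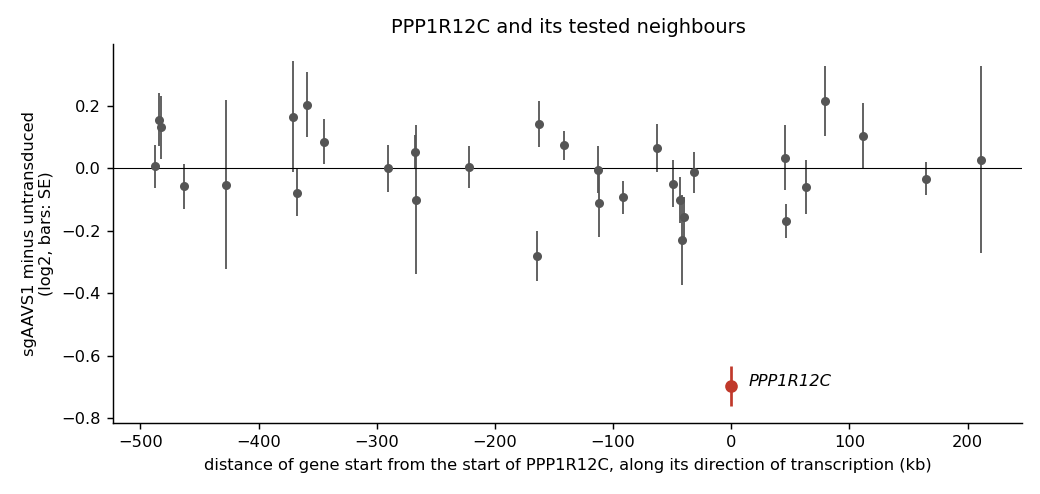
Log2 difference of sgAAVS1 minus untransduced for PPP1R12C (red) and the 32 tested neighbours with a mean log2 value of at least 2 (grey), against the distance of each gene's start from the start of PPP1R12C in kb. Bars are standard errors from limma. PPP1R12C lies at -0.70 and the neighbours lie between -0.28 and 0.22.

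Across all tested genes, limma called 648 at adjusted p under 0.05, 302 higher (2.06%) and 346 lower (2.36%) with sgAAVS1. Most differences were small. The median absolute log2 difference of the called genes was 0.29, and 22 changed at least 2-fold, 6 higher and 16 lower. Without median alignment, on the values as deposited, 697 genes were called and 62.4% of them were higher, against 46.6% with alignment. The count depended on single libraries. It was 172 without the first and 127 without the second untransduced library, and 973 without the first and 1335 without the second sgAAVS1 library. It was 60 when replicates closer than counting noise were counted as 1 library, and 10 without the mean-variance trend of limma. Whether replicates are separate cultures is not in the labels, and p-values here cover the spread between these libraries alone, which may be technical.

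**Figure D2:**
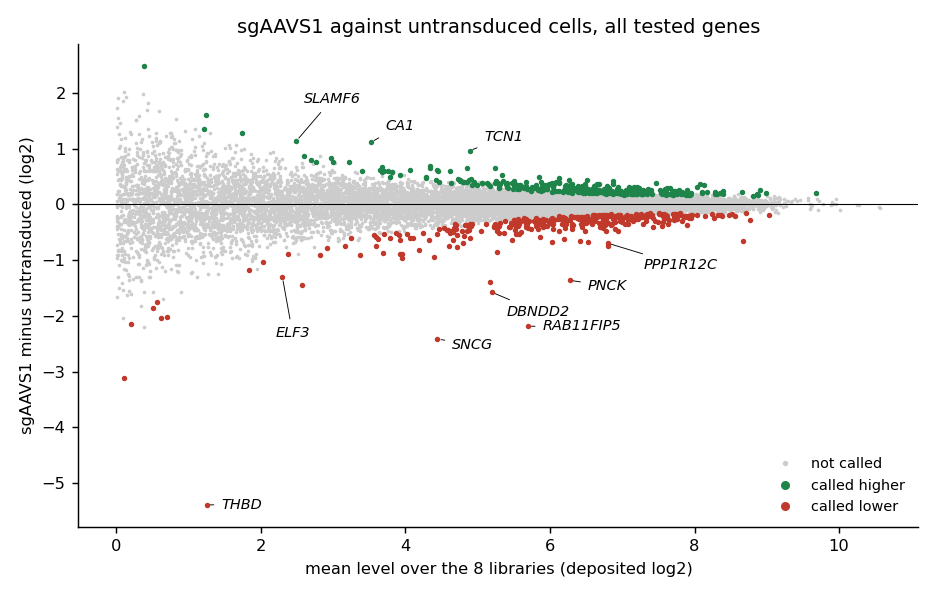
Log2 difference of sgAAVS1 minus untransduced for each of 14665 tested genes against its mean deposited log2 level over the 8 libraries. Genes called higher by limma are green (302) and genes called lower are red (346), and THBD, with 0 reads in both sgAAVS1 libraries, stands apart at the bottom.

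Among called genes with a mean log2 of at least 2 and no overlap of the libraries, the lowest differences were in SNCG, RAB11FIP5 and DBNDD2. SNCG, which encodes gamma-synuclein (chromosome 10, 86958618 to 86963260, plus strand), had 164 and 188 reads in untransduced cells and 28 and 34 with sgAAVS1, a 5.34-fold lower level (log2 difference -2.42, SE 0.108, limma adjusted p 3.56e-11). RAB11FIP5, an effector of the recycling endosome GTPase RAB11 (chromosome 2, 73073382 to 73156721, minus strand), had 396 and 437 reads against 70 and 105 (log2 difference -2.19, SE 0.0849, limma adjusted p 5.03e-12). DBNDD2, a dysbindin domain protein, had 268 and 280 reads against 75 and 99, a 2.98-fold lower level with limma adjusted p 2.35e-10. In each of these genes all 4 libraries with an IRF2 guide lay near the untransduced ones: SNCG had 168 to 205 reads there, RAB11FIP5 382 to 483 and DBNDD2 220 to 271. The read-through transcript SYS1-DBNDD2 shares exons with DBNDD2 and fell with it (log2 difference -1.40, limma adjusted p 2.95e-09), while the upstream gene SYS1 had a log2 difference of -0.15 (limma adjusted p 0.43). SNCG lies within MMRN2 on the other strand and RAB11FIP5 overlaps other genes, and the strand setting of the counting is not known. MMRN2 had 10 and 6 reads in untransduced cells and 1 and 5 with sgAAVS1 (log2 difference -1.70, limma adjusted p 0.0843). The spans of C10orf10, KCP, CA1, TCF7, IL16 and DBNDD2 also overlap a gene on the other strand (RASSF4, ATP6V1F, CA3, SKP1, STARD5 and TP53TG5 in that order), and HBM overlaps HBZ on the same strand, so reads of each pair may be shared.

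PNCK and SLC6A8, which share a start region on the X chromosome, both fell, and SLC6A8 was picked after its values were seen. PNCK, a calcium/calmodulin-dependent kinase, had 578 and 594 reads in untransduced cells and 204 and 224 with sgAAVS1 (log2 difference -1.36, SE 0.075, limma adjusted p 7.32e-10). SLC6A8, the creatine transporter, had 2561 and 2524 reads against 1406 and 1625 (log2 difference -0.66, SE 0.0547, limma adjusted p 5.51e-07). The RefSeq starts of PNCK at 153687771 and SLC6A8 at 153687926 are separated by the 154 bases printed above, and the annotated spans of the genes overlap. PNCK was also lower than with both IRF2 guides (log2 difference -1.14, limma adjusted p 3.49e-10), as was SLC6A8 (-0.65, limma adjusted p 2.02e-08). In the cells with sg1-IRF2, PNCK had 405 and 423 reads, between the untransduced and sgAAVS1 values, and with sg2-IRF2 568 and 587.

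Further genes that fell below both the untransduced cells and the IRF2 guides were, apart from THBD, picked after their values were seen. THBD (chromosome 20, 23045633 to 23049741, minus strand), which encodes the endothelial receptor thrombomodulin, had 36 and 45 reads in untransduced cells and 0 in both sgAAVS1 libraries, at least 25.6-fold lower with a floor of 3 reads over the group. The sg1-IRF2 libraries had 25 and 34 THBD reads, those of sg2-IRF2 28 and 23. Of 8 tested endothelial markers THBD was called lower and PECAM1, an adhesion molecule, higher. PECAM1 had a log2 difference of 0.28 (limma adjusted p 0.0412), and its call was lost without any 1 library other than the first sgAAVS1 library, with adjusted p up to 0.319 in those fits. ZNF660, a zinc finger gene, had 7 and 11 reads against 1 and 0, 17 times as many (95% counting interval 2.69 to 710). Its limma call was lost without the second untransduced library (adjusted p 0.0833), without the trend (0.0755), in the fit of the 4 libraries (0.0616) and with close pairs counted as 1 library (0.191). SNX33, a sorting nexin of endocytosis, had 712 and 694 reads against 320 and 488 (log2 difference -0.74, limma adjusted p 6.38e-07). Its head-to-head neighbour IMP3, with an opposite-strand overlap, had a difference of 0.08 (limma adjusted p 0.662). ABHD5, the activator of triglyceride lipase, had 450 and 451 reads against 242 and 309 (log2 difference -0.63, limma adjusted p 1.58e-06). ANO10, whose span overlaps it on the other strand, differed by -0.32 (limma adjusted p 0.00218), a call lost without the first untransduced library (adjusted p 0.077), without the trend (0.139) and with close pairs counted as 1 library (0.199). ALDH1A1, a retinaldehyde dehydrogenase, ZNF30 and ZNF584, both zinc finger genes, fell by 0.77, 0.74 and 0.65 on the log2 scale. Among SNCG, RAB11FIP5, DBNDD2, SYS1-DBNDD2, PNCK, THBD, ABHD5, SNX33, SLC6A8, ALDH1A1, ZNF30 and ZNF584, the call was lost in 1 of the alternatives tried, the fit without the trend, for SNX33, SLC6A8, ALDH1A1, ZNF30 and ZNF584, and in none of those run for the others.

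**Figure D3:**
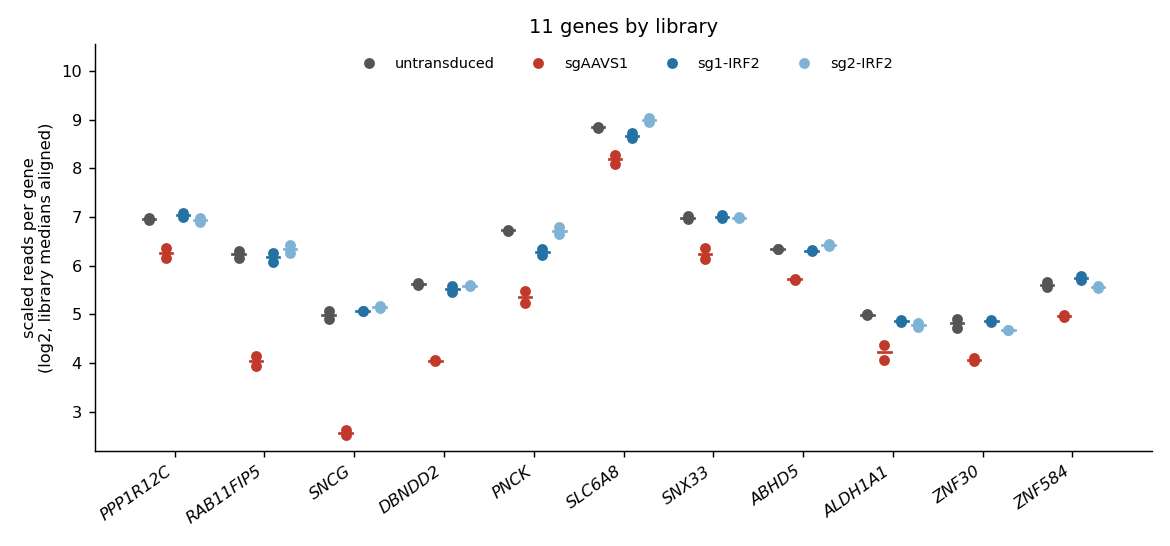
Median-aligned log2 level of 11 genes in each library, with points for libraries and lines for the mean of 2, in untransduced cells (grey), sgAAVS1 (red), sg1-IRF2 (dark blue) and sg2-IRF2 (light blue). Genes outside the 12 lowest, other than PPP1R12C, were picked after their values were seen. In each of the 11 genes both sgAAVS1 libraries lie below all 6 others.

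The other 7 of the 12 lowest genes had values below untransduced with sg1-IRF2 and, by less except for PAM, with sg2-IRF2. C10orf10, a stress-response gene, had 57 and 48 reads in untransduced cells against 17 and 19 (log2 difference -1.45, limma adjusted p 0.000692). In the sg1-IRF2 libraries it had 26 and 28, and 45 and 37 in those of sg2-IRF2. Its difference from both IRF2 guides was -0.83 (limma adjusted p 0.0266). ELF3, TLE6, KCP, SYT11, PAM and PTHLH did not pass that test. ELF3, an epithelial ETS factor, had 45 and 41 reads against 12 and 22 (log2 difference -1.31, SE 0.249, limma adjusted p 0.00422), while the sg1-IRF2 libraries had 17 and 17 and those of sg2-IRF2 40 and 43. SYT11, a synaptotagmin of membrane traffic, had 161 and 188 reads against 76 and 94 (log2 difference -0.95, limma adjusted p 0.000291). The corepressor TLE6, the secreted protein KCP, the peptide-amidating enzyme PAM and the hormone PTHLH had log2 differences of -1.04, -0.97, -0.91 and -0.91. Set against the same untransduced libraries, sg1-IRF2 had differences of -0.89 for C10orf10, -1.27 for ELF3, -1.04 for SYT11, -0.78 for TLE6, -0.85 for KCP, -0.35 for PAM and -0.93 for PTHLH, of which those of TLE6 (limma adjusted p 0.0919) and PAM (0.433) did not pass the test. For sg2-IRF2 the differences were -0.34 for C10orf10, -0.03 for ELF3, -0.29 for SYT11, -0.02 for TLE6, -0.42 for KCP, -0.67 for PAM and -0.45 for PTHLH, and none passed the test (limma adjusted p 0.274 to 0.995). Without the first or without the second untransduced library the calls of ELF3, TLE6, PAM and PTHLH with sgAAVS1 were lost, with limma adjusted p from 0.0567 to 0.242. Without the first sgAAVS1 library those of TLE6, PAM and PTHLH were lost too. SYT11, KCP and C10orf10 kept theirs in each of these fits.

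Many genes called with sgAAVS1 also differed between sg1-IRF2 and sg2-IRF2, a comparison that shares no library with this one. Both comparisons take the spread of each gene from the same fit of 8 libraries, so their calls are not independent. A gene of small spread can pass more easily in both. In sg1-IRF2 against sg2-IRF2 limma called 231 genes (1.58%), 86 higher (0.586%) and 145 lower (0.989%) with sg1-IRF2. This count depended on the scaling and on the trend. On the values as deposited, where the median difference of all genes was 0.11 in place of 0, it was 1952, 1859 higher and 93 lower, and without the trend it was 4. Of all genes, 115 were called in both comparisons, 17.7% of the 648 and 49.8% of the 231, and 114 of them had the same direction, 85 lower and 29 higher. On the values as deposited 344 genes were called in both, 49.4% of 697 and 17.6% of 1952, with 337 in the same direction, and without the trend 0 were. With close pairs counted as 1 library 2 were called in both, 3.33% of 60 and 14.3% of 14. The exception was TAP2, a peptide transporter subunit, with a log2 difference of 0.40 with sgAAVS1 and of -0.45 in sg1-IRF2 minus sg2-IRF2. Of the 346 genes called lower with sgAAVS1, 315 (91%) also had a lower value with sg1-IRF2 relative to sg2-IRF2, and of the 302 called higher 285 (94.4%) a higher value, against 66.2% of all tested genes. On the values as deposited these shares were 68.7% and 98.6%, against 65.3%. The correlation of both differences across 12500 genes with a mean log2 value of at least 2 was 0.429, a description only, since genes are not independent replicates and sgAAVS1 and sg1-IRF2 libraries of the same number were close. Their deviations from the group means correlated at 0.216 across genes, and the mean chi-square per gene between them was 1.11 and 1.22, against 1.66 between the sgAAVS1 replicates. The number of calls in sg1-IRF2 against sg2-IRF2 ran from 36 to 703 with 1 library left out.

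**Figure D4:**
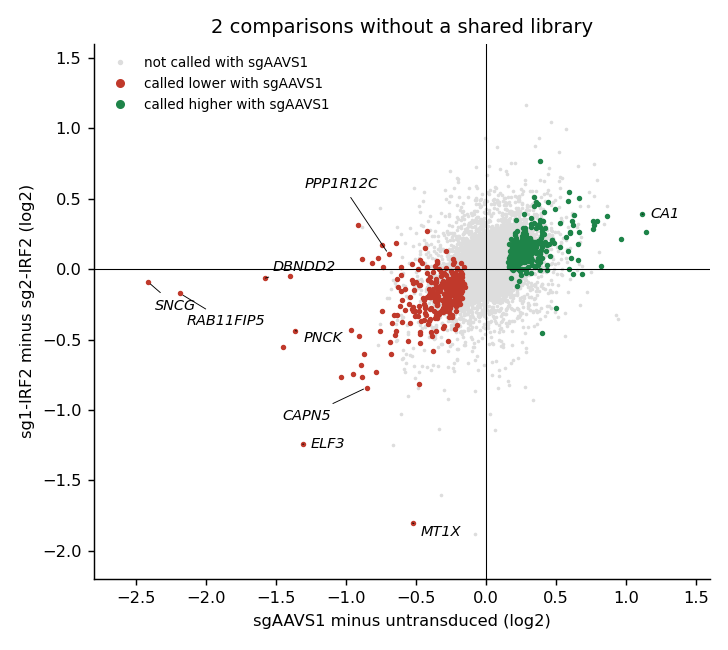
Log2 difference of sg1-IRF2 minus sg2-IRF2 against that of sgAAVS1 minus untransduced, for genes with a mean log2 value of at least 2. Genes called lower (red) or higher (green) with sgAAVS1 mostly lie on the same side of 0 in both, while SNCG, RAB11FIP5, DBNDD2 and PPP1R12C lie between -0.17 and 0.11 on the vertical axis.

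Among the genes lower in both comparisons, CAPN5, a calpain protease, had 302 and 302 reads in untransduced cells against 131 and 188, while the sg1-IRF2 libraries had 125 and 171 and those of sg2-IRF2 289 and 252. Its log2 differences were -0.85 (limma adjusted p 1.62e-05) and -0.84 (limma adjusted p 0.000104). NGFR, the low-affinity nerve growth factor receptor, had -0.89 and -0.68 in the same order. KIT, the stem cell factor receptor, had 201 and 187 reads against 96 and 133, with log2 differences of -0.69 and -0.52. NDRG1, a hypoxia-induced gene, had 651 and 655 reads against 307 and 476, with log2 differences of -0.68 and -0.60. Among the genes higher in both, SLC6A9, a glycine transporter, had log2 differences of 0.38 (limma adjusted p 0.0202) and 0.77, SLC1A4, a neutral amino acid transporter, 0.37 and 0.46, FAM83H 0.39 and 0.30, and GEN1, a nuclease that resolves recombination intermediates, 0.37 and 0.31. Without the second untransduced library the calls of NGFR, SLC6A9, SLC1A4 and GEN1 with sgAAVS1 were lost, with limma adjusted p from 0.0695 to 0.19. SLC6A9 and SLC1A4 also lost theirs without the first untransduced library and SLC6A9 without the second sgAAVS1 library.

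Among called genes with a mean log2 of at least 2 and no overlap of the libraries, the highest differences were smaller than the lowest. Outside that limit PTAFR, a receptor for platelet-activating factor, had the highest called difference, 2.48 (SE 0.65, limma adjusted p 0.034). It was picked after its value was seen, its standard error is large, and its reads and alternative fits are not given here. TCN1, a vitamin B12 binding protein, had 104 and 111 reads in untransduced cells and 167 and 230 with sgAAVS1 (log2 difference 0.96, SE 0.0923, limma adjusted p 3.57e-06). CA1, an erythroid carbonic anhydrase, had 42 and 35 reads against 63 and 96 (log2 difference 1.11, SE 0.167, limma adjusted p 0.000684). Both kept their calls without any 1 library. SLAMF6, a lymphoid surface receptor, had 21 and 18 reads against 31 and 52 (log2 difference 1.14, limma adjusted p 0.00891). TCN1, CA1 and SLAMF6 did not pass the limma test against both IRF2 guides, with log2 differences of 0.21, 0.20 and 0.34 there. TCN1 was also higher than untransduced with sg1-IRF2 (0.85) and with sg2-IRF2 (0.64), as was CA1 (1.11 and 0.72), and those values share the untransduced libraries.

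The other members of the 12 highest genes were HBM, a globin, ITGB2, a leukocyte integrin chain, ZNF583, the hyaluronidase HYAL1, the interleukin-18 receptor subunit IL18RAP, the transcript RP11-1136G4.2, the cytokine IL16, the receptor GPR85 and the T cell factor TCF7. Their log2 differences ran from 0.66 for TCF7 and GPR85 to 0.86 for HBM. HBM had 23 and 25 reads in untransduced cells and 37 and 45 with sgAAVS1. Without the second untransduced library SLAMF6 and, of these 9, all but IL16 lost the limma call, with adjusted p from 0.0662 for TCF7 to 0.324 for RP11-1136G4.2. Without the first untransduced library SLAMF6, HBM, ITGB2, ZNF583, HYAL1, IL18RAP, IL16 and GPR85 lost it, with adjusted p from 0.0515 to 0.165. HBM and ITGB2 also lost it without the first sgAAVS1 library, and HYAL1, IL18RAP, RP11-1136G4.2 and ZNF583 without the second. IL18RAP also lost it without any 1 library of the IRF2 guides, and ZNF583 without any 1 of these but the first sg2-IRF2 library.

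Gene lists were read by their counts beside the 4.42% of all tested genes that were called. Of all 14665 tested genes, 2710 had an unadjusted limma p under 0.05. Fits without 1 sgAAVS1 library hold no spread of sgAAVS1, and more of all tested genes were called in them. Fewer of all tested genes were called without 1 untransduced library. Changes in the number of called members across these fits show the dependence on single libraries and are not further results. Interferon-stimulated genes, which report an innate response, had 1 of 35 tested members called, GBP2, an interferon-induced GTPase. GBP2 was lower by a log2 difference of -0.47 (limma adjusted p 0.00771), and was also lower than untransduced with sg1-IRF2 (-0.71). The call of GBP2 was lost without either untransduced library (limma adjusted p 0.0627 and 0.125). Of 13 tested genes for antigen processing TAP2 was called, of 12 nucleic acid sensors MAVS, the adaptor of RNA sensing, with a log2 difference of 0.24, and of 14 NF-kB genes 0 by limma and by voom, with 4 at an unadjusted p under 0.05. The call of TAP2 was lost without either untransduced library or the first sgAAVS1 library (limma adjusted p 0.0576 to 0.246), and that of MAVS without the second untransduced library (0.0961). Of 20 genes of the DNA damage response and 32 of the cell cycle and DNA replication 0 were called by limma and by voom, with 4 and 3 at an unadjusted p under 0.05 and medians of 0.04 and 0.05. With the second sgAAVS1 library left out some of these were called higher, in a fit that called more of all tested genes. Of 23 KRAB corepressor and heterochromatin genes FAM208A, a HUSH complex subunit, and UHRF1, which maintains DNA methylation, were called higher, with log2 differences of 0.19 and 0.19. Both calls were lost without either untransduced library. With the second sgAAVS1 library left out more members were called higher, as were more of all tested genes.

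The list of hypoxia and glycolysis genes had 7 of 30 tested members called, all lower: NDRG1, EGLN3, KDM3A, ENO2, BNIP3, VEGFA and BNIP3L. EGLN3, an oxygen-sensing prolyl hydroxylase, had 661 and 646 reads in untransduced cells and 410 and 555 with sgAAVS1 (log2 difference -0.36, SE 0.0549, limma adjusted p 0.000748). VEGFA, the endothelial growth factor, had 2565 and 2388 reads against 1825 and 2016 (log2 difference -0.28). Its difference was -0.15 without the second sgAAVS1 library (limma adjusted p 0.0521), and its call was lost without the first (0.247) or the second (0.0786) untransduced library too. KDM3A, a histone demethylase, and ENO2, an enolase, differed by -0.26 each. GAPDH had 0.01 and the list's median was -0.07, against 0.01 over all genes tested. In sg1-IRF2 minus sg2-IRF2 the median of the same list was -0.16. Fewer members were called without the first or the second untransduced library, where fewer of all tested genes were called too. With the first sgAAVS1 library left out more members were called, and with the second as many. More of all tested genes were called in both of these fits.

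Of 21 tested immediate-early and serum response genes 6 were called lower, JUN, ATF3, KLF6, DUSP5, DUSP1 and KLF10, and EGR1 higher. DUSP5, a phosphatase of ERK kinase, had 122 and 121 reads against 62 and 91 (log2 difference -0.60, limma adjusted p 0.00608). JUN, a subunit of AP-1, had 1277 and 1335 reads against 910 and 1144 (log2 difference -0.26, limma adjusted p 0.002). EGR1 had a log2 difference of 0.22 and MYC of 0.18 (limma adjusted p 0.0608). Fewer members were called without the first or the second untransduced library, where fewer of all tested genes were called too. Of 18 cell cycle inhibitors and apoptosis genes 4 were called lower. These were PMAIP1 and BBC3, which promote apoptosis, and CDKN1A and CDKN1C, inhibitors of cyclin-dependent kinases. BCL2L11, another promoter of apoptosis, was called higher (log2 difference 0.23), a call lost in 11 of 18 alternatives, among them the fits without either untransduced library, the second sgAAVS1 library or any 1 IRF2-guide library (limma adjusted p 0.0698 to 0.342). PMAIP1 had 393 and 391 reads against 234 and 316 (log2 difference -0.44, limma adjusted p 0.000581). Fewer of this list were called lower without the first or the second untransduced library, as were fewer of all tested genes.

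Of 22 tested amino acid stress and ATF4 target genes 5 were called higher and 0 lower. They were SLC7A5 and SLC7A1, amino acid transporters, the factor ATF5, PSAT1 of serine synthesis and the hormone STC2. SLC7A5 had 1278 and 1284 reads against 1335 and 1683, the second library being deeper (log2 difference 0.32, limma adjusted p 0.000345). ASNS had 0.13 and TRIB3 0.08, and neither passed the test. The list's median was 0.10, and 0.20 in sg1-IRF2 minus sg2-IRF2. Fewer genes of the ATF4 list were called higher without the first or the second untransduced library, and more without either sgAAVS1 library. The number of all tested genes called higher changed the same way. With the first sgAAVS1 library left out some of the ATF4 list were also called lower. Of 10 metallothionein and metal response genes SLC30A1 and MT1X were called lower. The calls of SLC30A1 and MT1X were lost without the first or the second untransduced library, where fewer of all tested genes were called. On the values as deposited SLC30A1 was not called (limma adjusted p 0.0633).

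**Figure D5:**
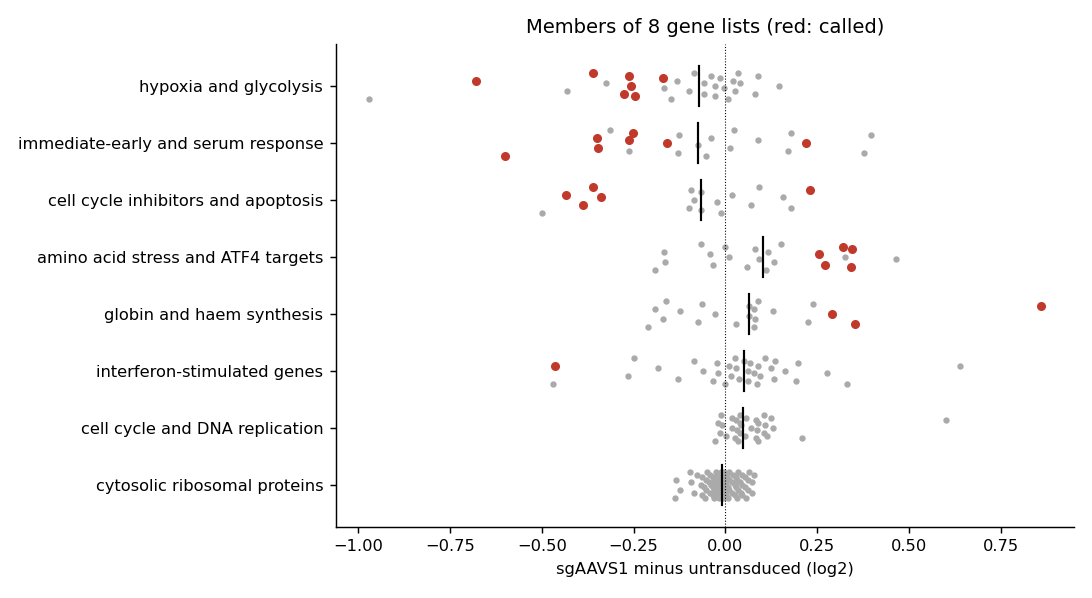
Log2 difference of sgAAVS1 minus untransduced for each tested member of 8 gene lists, with called genes in red and the list median as a black line. Called members of the hypoxia and glycolysis list lie to the left of 0 and those of the ATF4 list to the right, while none of the ribosomal protein or cell cycle members is red.

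Of 21 tested globin and haem synthesis genes 3 were called higher, ALAS2, HBM and HBZ. ALAS2, the erythroid enzyme that starts haem synthesis, had 366 and 395 reads against 372 and 512 (log2 difference 0.29, limma adjusted p 0.00619). The fetal and embryonic globins HBG1, HBG2 and HBE1 had log2 differences of 0.06, 0.08 and 0.09 and did not pass the test. Fewer members of this list were called without the first or the second untransduced library, as were fewer of all tested genes. With the first sgAAVS1 library left out fewer members were called higher, and with the second more. More of all tested genes were called higher in both of these fits. Of 26 tested erythroid markers CA1 and ALAS2 were called higher. The summed level of this list on the median-aligned linear scale was 2844 and 2876 in the untransduced libraries and between 2918 and 3044 with sgAAVS1. Of 9 tested myeloid markers ITGAM was called lower. Of 7 megakaryocyte, 4 lymphoid and 10 adherent line markers 0 were called by limma and by voom, with 1, 0 and 0 at an unadjusted p under 0.05. Of 16 heat shock and chaperone genes HSPH1 was called higher. The calls of ITGAM and HSPH1 were lost without either untransduced library, with limma adjusted p from 0.124 to 0.208. In bulk RNA a change in the share of cells and one in RNA per cell cannot be told apart.

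Medians of ribosomal protein, mitochondrial and histone genes were farther apart between the 2 sgAAVS1 libraries than between the groups. The 84 tested cytosolic ribosomal protein genes had a median log2 difference of -0.01 between the groups and of 0.23 between the first and the second sgAAVS1 library, against 0.00 between the untransduced libraries. The 13 mitochondrially encoded genes had 0.06 between the groups and 0.26 between the sgAAVS1 libraries, and 0.17 between the untransduced libraries. The 53 tested histone genes had 0.11 between the groups and 0.19 between the sgAAVS1 libraries. None of the 3 lists had a member called by limma or voom. Their members with an unadjusted limma p under 0.05 numbered 0, 0 and 9, against 2710 of 14665 tested genes. With the second sgAAVS1 library left out some members of each list were called higher, and with the first left out some ribosomal protein genes lower. More of all tested genes were called in both fits too.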

How the data were processed

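The authors deposited log2 values for 8 RNA-seq libraries of ribosomal-RNA-depleted total RNA, made with a directional kit, per the labels. Per the submitters' processing notes they used cutadapt, Bowtie2 and hg38; no source used here names the counting tool or strand setting. Each deposited log2 value is the log of reads divided by a factor per library. In all libraries 100% of values above the minimum were whole multiples of 1 read (tolerance 0.01), so reads were recovered, and genes without reads are listed at 0.9 read.

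Library medians were aligned, and 4 group means were fitted to the 8 libraries with limma 3.58.1 in R 4.3.3 (eBayes with a mean-variance trend, 4 residual and 14.9 prior degrees of freedom). Tests were two-sided, adjusted by Benjamini-Hochberg over 14665 genes, and called at adjusted p under 0.05. The 12 lowest and 12 highest named genes had no overlap of the 4 libraries and a mean log2 of at least 2. The fit was also run on simulated data with the same spread in all groups, unlike these libraries, so that run does not bear on the calls here. Floors of 3 reads and 95% intervals cover counting error only. Promoter windows come from RefSeq. The members and lists were chosen with earlier results of these data known, and some genes and lists are not reported here. Alternatives were other scalings, filters, voom, a replicate block and leaving out libraries.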

Additional observations from a re-analysis of the deposited data

How the results depend on the processing

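The count of genes called by limma in sgAAVS1 against untransduced (648) stayed within 1.5 times under the deposited scaling, quantile normalization, voom on recovered reads, a mean log2 minimum of 2, reads plus 1, and leaving out any IRF2-guide library. It was 10 without the trend, 247 with all genes with a read, 299 with only the 4 libraries, 60 with close pairs counted as 1 library, and 127 to 1335 with 1 library left out. For sg1-IRF2 against sg2-IRF2 (231) it was 1952 on the deposited scale, 4 without the trend, 52 with all genes with a read, 14 with close pairs as 1 library, and 36 to 703 with 1 library left out. For sgAAVS1 against both IRF2 guides (208) it was 59 without the trend, 104 with close pairs as 1 library, and 122 to 449 with 1 library left out. The cause was not tested. Of the 71 called genes given by the naming rule, without those picked after their values were seen, 0 changed direction in the alternatives. Of these 71, 7 kept the call without the trend and 20 with close pairs as 1 library. Uncalled genes could change direction with the library left out. GAPDH lay at 7.88 and 7.64 in the sgAAVS1 libraries, on either side of the untransduced mean of 7.75. The labels do not say that a replicate number marks a shared batch. Deviations of same-numbered libraries correlated at -0.0508 for untransduced with sgAAVS1, at 0.216 for sgAAVS1 with sg1-IRF2, and from -0.0794 to 0.0244 for the other 4 pairs of groups, so the numbers were not taken to pair the samples. With a replicate block 671 genes were called, and 262 in sg1-IRF2 against sg2-IRF2. Under the block all 71 kept the call, and KLF10, picked after its values were seen, lost it (limma adjusted p 0.0587). Shared runs of 9 to 12 bases were each searched on their own, and 10 and 11 bases gave 2 and 1 lower genes. Depth limits the genes with few reads, such as ZNF660 and MMRN2.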
